A study of Mus musculus with 18 samples.

Results

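Fibroblast growth factor (FGF) signalling in bone was followed through 10 genes: the receptors *Fgfr1*, *Fgfr2*, *Fgfr3* and *Fgfr4*, the ligands *Fgf2*, *Fgf18* and *Fgf23*, and the feedback inhibitors *Spry1*, *Spry2* and *Spry4* of the Sprouty family. They were taken by symbol, out of 20202 gene symbols in the count tables. All 10 had a row in the tables of bone chips and of embryonic stem cells (ESC), and 9 had one in the table of fresh bone, so *Fgf23* was not analysed in fresh bone. That table holds no gene with fewer than 2 counts in all. Whether *Fgf23* has no row for that reason is not given.

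FGF ligands bind receptor tyrosine kinases at the cell surface together with heparan sulfate, and the activated receptor drives the RAS-ERK cascade and, at its end, ETS transcription factors. Sprouty proteins are induced by this cascade and dampen it from within. In the skeleton, *Fgfr3* is known as a brake on the growth of cartilage, *Fgfr1* and *Fgfr2* act in the osteoblast lineage, *Fgf18* is a ligand of growing cartilage and bone, and *Fgf23* is a hormone that osteocytes and osteoblasts release to control phosphate.

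RNA-seq libraries of 6 mouse cell populations were analysed, with 3 libraries in each. All of them come from mice or ESC lines that carry the Col2.3GFP transgene, in which a fragment of the *Col1a1* promoter drives green fluorescent protein (GFP) in maturing cells of the osteoblast lineage. GFP+ (hi) cells freshly sorted from long bone were compared with GFP- cells of the same tissue, and GFP+ (hi) cells sorted from cultures of bone chips kept under osteogenic differentiation were compared with GFP- cells of those cultures. GFP+ osteoblasts made from ESC by osteogenic differentiation (ESC-OB GFP+) were compared with ESC. The labels call both GFP- populations heterogeneous, so they are not a pure cell type. A treatment label gives osteogenic differentiation for the ESC as well, which were taken as undifferentiated from their titles. The age, sex and strain of the mice are not given in the sources used here, nor whether replicates were separate mice or cultures, so p-values measure only the spread between these samples.

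Total counts were 21425212 to 43874837 in bone GFP+ (hi) libraries and 5482065 to 6468750 in bone GFP- libraries. In bone chips they were 13228266 to 15221973 in GFP+ (hi) and 9829832 to 17553194 in GFP- libraries. ESC-OB GFP+ libraries held 20680956 to 26601417 counts and ESC libraries 4920977 to 21215099. The labels were checked against marker lists. All 8 osteoblast markers were higher in the GFP+ (hi) cells of bone and of bone chips. In ESC-OB GFP+ cells 5 of 6 tested were higher, *Alpl* was lower, and 7 of 7 pluripotency markers were lower. The ESC-OB GFP+ libraries differed in osteoblast signal, which was lowest in replicate 1 and highest in replicate 2. *Ibsp* had 0.587, 1380 and 243 CPM (counts scaled to library size) in replicates 1, 2 and 3. In the same order *Sp7* had 0.414, 5.38 and 0.884 CPM and *Bglap* 0.069, 1.32 and 0.0804 CPM. Replicate 2 of the chip GFP- cells stood apart in myeloid markers, with *Lyz2* at 311, 2620 and 232 CPM in the 3 libraries. ESC-OB GFP+ cells also had 3480 to 5160 summed CPM of 8 epithelial markers, against 430 to 567 in ESC. In fresh bone, GFP+ (hi) replicates 1 and 3 nearly lacked the chromosome Y transcripts that the other libraries had. The 4 Y-linked genes of the table had 6, 913 and 9 counts in GFP+ (hi) replicates 1, 2 and 3 and 727, 1167 and 625 in the GFP- libraries. Effects of GFP in bone therefore cannot be fully told apart from those of sex or animal, and bone results are also given with GFP+ (hi) replicate 2 alone where that changes a call.

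To set genes and populations side by side, counts were scaled by TMM over all 18 libraries and divided by the length of each gene's longest protein-coding transcript, which gives values in RPKM. Source, isolation and table differ together, so levels of different sources are a description. *Fgfr1* was the leading receptor in the GFP+ (hi) cells of bone and of bone chips. Its RPKM was 149 ± 7.46 in bone GFP+ (hi) and 29.7 ± 10 in bone GFP- cells (SD, n = 3 each), 67.1 ± 13.1 in chip GFP+ (hi) and 35.7 ± 4.02 in chip GFP- cells, and 17.2 ± 5.68 in ESC-OB GFP+ cells and 9.96 ± 0.91 in ESC. The libraries of chip GFP- and bone GFP- cells overlapped, as did those of ESC-OB GFP+ cells and ESC. *Fgfr2* stood highest in chip GFP- cells, at 50.2 ± 7.03 RPKM, and lowest in ESC, at 1.78 ± 0.151. Bone GFP+ (hi) cells (35.3 ± 4.03 RPKM) and bone GFP- cells (37.3 ± 5.79) could not be separated in *Fgfr2*, nor could ESC-OB GFP+ (20.4 ± 4.11) and chip GFP+ (hi) cells (17.9 ± 1.46).

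*Fgfr3* had its highest level by far in bone GFP- cells, at 130 ± 55.2 RPKM, where its SD was also the largest. It followed at 30.3 ± 6.04 RPKM in chip GFP+ (hi) cells, at 12.1 in each of bone GFP+ (hi) and chip GFP- cells, at 10.3 ± 0.333 in ESC-OB GFP+ cells and at 0.104 ± 0.091 in ESC. *Fgfr4* was scarce wherever it was found, with 4.04 ± 1.42 RPKM in bone GFP- and 2.58 ± 0.791 in ESC-OB GFP+ cells, whose libraries overlapped, and no more than 0.318 in the other 4 populations. Among the ligands, *Fgf18* reached 20.0 ± 5.77 RPKM in bone GFP- and 19.1 ± 9.94 in ESC-OB GFP+ cells and no more than 1.57 elsewhere. *Fgf2* did not pass 3.66 RPKM in any population, and *Fgf23* did not pass 0.243 in the 4 populations where it has a row. *Spry1* was highest in bone GFP+ (hi) cells, at 40.6 ± 12.3 RPKM, then in ESC-OB GFP+ cells at 26.7 ± 0.628, and was at 5.65 or below in the rest. The highest level of *Spry2* was instead in chip GFP- cells, at 40.5 ± 2.95 RPKM, with ESC next at 14.7 ± 3.67. *Spry4* was highest in chip GFP+ (hi) cells, at 10.2 ± 3.56 RPKM, and lowest in ESC, at 0.525 ± 0.293.

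**Figure D1:**
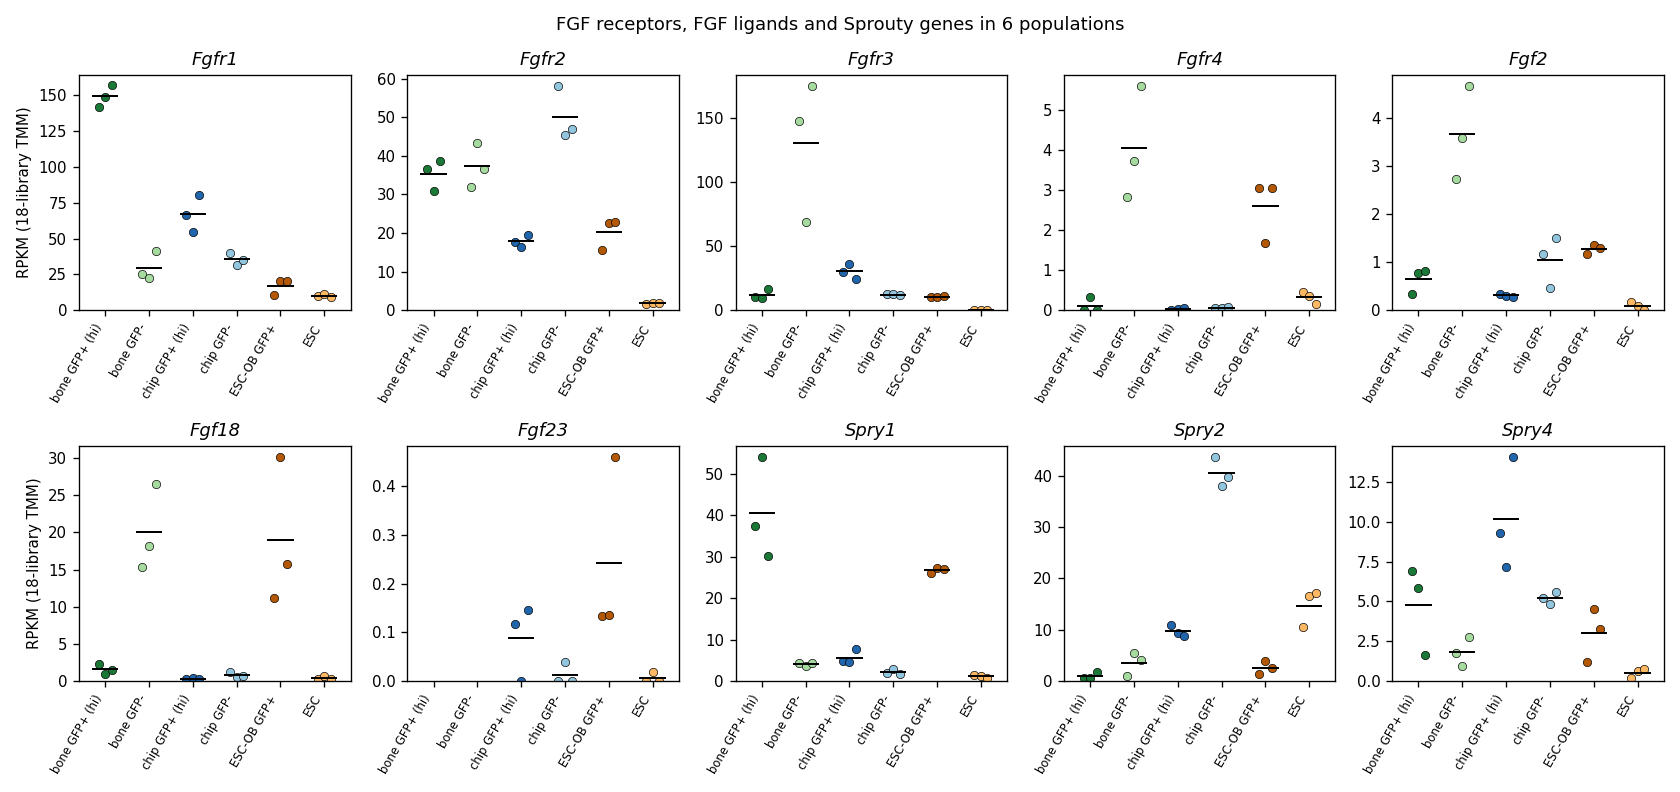
RPKM of the 10 genes (y axes start at 0 and differ between panels) in each of the 18 libraries, by population; points are libraries and lines are means of 3 libraries. *Fgfr1* and *Spry1* have their highest points in bone GFP+ (hi) cells, *Fgfr3* (mean 130 RPKM) in bone GFP- cells and *Spry2* (mean 40.5 RPKM) in chip GFP- cells; *Fgf23* has no row in fresh bone.

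Because RPKM is scaled by length, the 4 receptors can be expressed as shares of their sum. In bone GFP+ (hi) cells *Fgfr1* made up 73.9 to 78.5% of receptor RPKM, against 12.3 to 16.3% in bone GFP- cells. The share of *Fgfr3* was 5.08 to 7.87% in the GFP+ (hi) cells of bone, against 49.6 to 71.1% in the GFP- cells. The sum itself overlapped between these populations, at 189 to 213 RPKM in GFP+ (hi) and 138 to 258 in GFP- cells. In bone chips *Fgfr1* made up 50.7 to 64.8% in GFP+ (hi) and 35.5 to 37.7% in GFP- cells, and *Fgfr2* 15.3 to 15.6% in GFP+ (hi) and 50.0 to 52.6% in GFP- cells. The leading receptor of chip GFP- cells was thus *Fgfr2*, and that of chip GFP+ (hi) cells *Fgfr1*. ESC-OB GFP+ cells had a mixed set, with 26.9 to 37.6% *Fgfr1*, 39.7 to 41.0% *Fgfr2*, 18.4 to 25.6% *Fgfr3* and 3.03 to 7.74% *Fgfr4*, whereas 81 to 83% of receptor RPKM in ESC was *Fgfr1*. The 4 receptors summed to 39.3 to 56.7 RPKM in ESC-OB GFP+ cells, against 11.3 to 13.2 in ESC. With the union of all annotated exons as the length, the *Fgfr1* share of bone GFP+ (hi) cells was 75.1 to 79.5% and that of bone GFP- cells 12.4 to 16.6%.

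**Figure D2:**
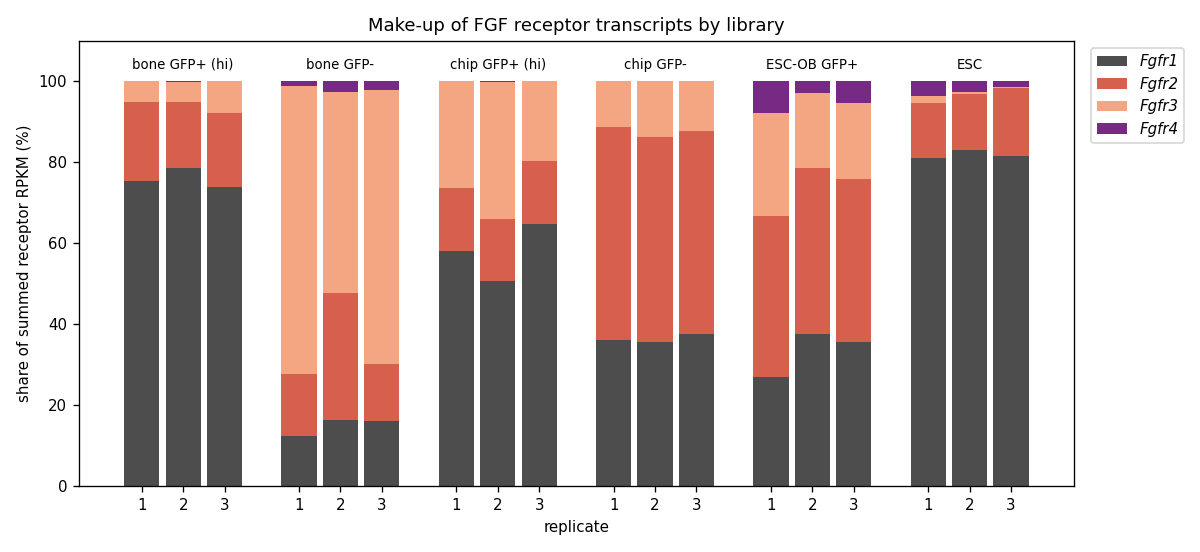
Share of summed FGF receptor RPKM (y axis, percent) taken by each receptor in each library (x axis, replicates 1 to 3 of each population). *Fgfr1* fills 73.9 to 78.5% of the bars of bone GFP+ (hi) cells and *Fgfr3* 49.6 to 71.1% of those of bone GFP- cells, and *Fgfr2* fills 50.0 to 52.6% in chip GFP- cells.

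Each source was then tested on its own, from the counts of its 6 libraries, with edgeR's quasi-likelihood test adjusted over all genes tested. CPM beside these tests are scaled within the source and are not on the scale of the RPKM above. A gene under an adjusted p of 0.05 was called. A gene could pass the filter on low counts through a single group, and its being tested was then tied to a higher level there. In bulk RNA, fewer cells of a type and less RNA per cell cannot be told apart.

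In fresh bone, the question was how mature osteoblasts differ from the other sorted cells of long bone. *Fgfr1* and *Spry1* were higher in the GFP+ (hi) cells, and *Fgfr3*, *Fgfr4*, *Fgf2*, *Fgf18* and *Spry2* were lower. Of the 9 genes tested 7 were called, where 41.6% of all 12559 genes tested were. By direction, 2 were higher, beside 19.5% of all genes, and 5 were lower, beside 22.1%. Their median log2 fold change was -1.91, against 0 over all genes tested. *Fgfr4*, *Fgf2*, *Fgf18* and *Spry2* passed the filter on low counts only through the GFP- libraries. The count of lower genes and the median are therefore a description. With GFP+ (hi) replicate 2 alone, which takes its spread from the GFP- libraries, 3 genes were higher and 3 lower. *Fgf2* (-2.30, edgeR adjusted p = 0.0528, against -2.66 with all libraries) and *Spry2* (-2.50, edgeR adjusted p = 0.0714, against -1.91) were then not called, with folds of the same direction, and *Spry4* was (1.59, edgeR adjusted p = 0.0262).

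*Fgfr1*, the receptor of broad mesenchymal expression, lies on mm9 at chr8:26624126-26686186 on the plus strand. It had 439, 476 and 485 CPM in bone GFP+ (hi) cells, against 86.9, 78.2 and 141 CPM in bone GFP- cells. Every GFP+ (hi) library stood far above every GFP- library, with a log2 fold change of 2.19 (SE 0.23, edgeR adjusted p = 6.4e-05). *Fgfr2*, known from craniosynostosis, had 100, 87.6 and 106 CPM in bone GFP+ (hi) cells and 96.3, 134 and 111 CPM in bone GFP- cells. Its libraries overlapped and it was not called, at -0.22 (SE 0.16, edgeR adjusted p = 0.325). The entry of *Fgfr2* in the annotation runs from chr7:137305965 to 140315033 on the minus strand. That span takes in many other genes, among them *Htra1*, *Oat* and *Bub3*, and shares 314 exon bases with *Ctbp2*. It is therefore not taken as the place of *Fgfr2*. The authors used RefSeq genes, so this overlap need not bear on the counts.

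*Fgfr3*, whose activating mutations cause achondroplasia, showed the opposite order to *Fgfr1*. It lies at chr5:34064373-34079716 on the plus strand and had 26.1, 26.1 and 43.7 CPM in bone GFP+ (hi) cells, against 426, 201 and 505 CPM in bone GFP- cells. The lowest GFP- library was still above the highest GFP+ (hi) library, and the log2 fold change was -3.56 (SE 0.36, edgeR adjusted p = 5.72e-05). Cartilage markers moved with it in this source. The summed CPM of 11 chondrocyte markers was 10800 to 13800 in bone GFP+ (hi), against 108000 to 217000 in bone GFP- cells, and 10 of the 11 were lower in GFP+ (hi) cells. *Col2a1*, the collagen of cartilage, had 4070, 2600 and 1650 CPM in bone GFP+ (hi) cells and 161000, 85700 and 182000 CPM in bone GFP- cells. GFP- replicate 2 was the lowest of its group in both *Col2a1* and *Fgfr3*. The part of cartilage cells in the *Fgfr3* difference was not tested. Markers of proliferation were at 17.4 to 32.6 summed CPM in bone GFP+ (hi) and 117 to 135 in bone GFP- cells. They were also lower in chip GFP+ (hi) cells (34 to 52, against 138 to 214 in chip GFP- cells). The same held in ESC-OB GFP+ cells (74.4 to 141, against 2280 to 2640 in ESC). In both of those sources *Fgfr3* was higher.

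*Fgfr4*, a receptor better known from liver and muscle, lies at chr13:55254001-55270120 on the plus strand. It had 0, 10 and 0 counts in bone GFP+ (hi) libraries, and 58, 75 and 109 counts in bone GFP- libraries, which are 6.38, 8.57 and 12.7 CPM. All the counts of the GFP+ (hi) cells were in replicate 2. Pooled over libraries, its CPM was 61.1 times as high in bone GFP- as in bone GFP+ (hi) cells (95% counting interval 32.7 to 129), and the fitted log2 fold change was -5.64 (SE 1.09, edgeR adjusted p = 0.00274). The fitted value rests on that library: it was -10.18 without it and -3.72 with replicate 2 as the only GFP+ (hi) library, and it was called in both.

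*Fgf2* and *Fgf18*, the ligands among the chosen genes that have a row in fresh bone, were both lower in GFP+ (hi) cells. *Fgf2*, a ligand that binds several receptors and lies at chr3:37211441-37304299 on the plus strand, had 8, 9 and 13 counts (0.256, 0.614 and 0.625 CPM) in bone GFP+ (hi) cells and 21, 27 and 34 counts (2.31, 3.09 and 3.97 CPM) in bone GFP- cells. These groups lay apart although the GFP- libraries are the shallower ones, with a log2 fold change of -2.66 (SE 0.59, edgeR adjusted p = 0.00592). *Nudt6*, on the opposite strand, shares 242 exon bases with *Fgf2*, and how the authors' counting used strand is not given in the sources used here, so reads of these bases cannot be told apart. *Nudt6* was lower as well, at -1.33 (SE 0.39, edgeR adjusted p = 0.0221). *Fgf18*, which acts on chondrocytes largely through *Fgfr3*, lies at chr11:33017430-33047400 on the minus strand and had 1.54, 0.683 and 0.962 CPM in bone GFP+ (hi) cells, against 11.4, 13.7 and 19.7 CPM in bone GFP- cells. Its log2 fold change was -3.76 (SE 0.39, edgeR adjusted p = 6.99e-05), close in size to that of *Fgfr3*, and the groups did not overlap.

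The Sprouty genes did not move as a family. *Spry1* lies at chr3:37538869-37543520 on the plus strand, and *Spry2* at chr14:106291166-106296036 on the minus strand. Their promoters are shown because these 2 related inhibitors went in opposite directions in all 3 sources (the call of *Spry2* in bone being marginal), and the promoter of *Fgfr3* because that receptor went in opposite directions in bone and in bone chips. The sequences are the 250 bases before the gene start, from RefSeq on GRCm38.p6, a later build than the mm9 of the gene positions above. Capitals mark GGAA or its complement TTCC, the core that ETS factors read.
*Spry1*, chr3:37639697-37639946, plus strand: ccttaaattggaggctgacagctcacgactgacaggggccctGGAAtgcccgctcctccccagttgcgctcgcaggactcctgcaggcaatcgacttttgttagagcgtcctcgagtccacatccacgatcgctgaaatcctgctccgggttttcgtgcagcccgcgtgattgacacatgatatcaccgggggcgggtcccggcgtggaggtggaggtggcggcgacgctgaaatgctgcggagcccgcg
*Spry2*, chr14:105896820-105897069, minus strand: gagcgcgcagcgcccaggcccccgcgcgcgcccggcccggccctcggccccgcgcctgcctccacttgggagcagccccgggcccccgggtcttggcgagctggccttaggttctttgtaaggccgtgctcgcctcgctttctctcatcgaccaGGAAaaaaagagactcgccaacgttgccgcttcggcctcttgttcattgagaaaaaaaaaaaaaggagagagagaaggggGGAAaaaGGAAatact
*Fgfr3*, chr5:33721474-33721723, plus strand: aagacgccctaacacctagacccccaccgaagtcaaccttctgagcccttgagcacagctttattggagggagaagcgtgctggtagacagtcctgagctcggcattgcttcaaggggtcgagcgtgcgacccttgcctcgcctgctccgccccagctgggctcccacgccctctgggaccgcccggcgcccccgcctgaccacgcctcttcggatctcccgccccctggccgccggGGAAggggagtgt

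The *Spry1* window held 1 ETS core, 208 bases before the start, and the *Spry2* window held 3, at 9, 16 and 96 bases before it. The *Fgfr3* window had 1, at 13 bases. Such a core is present in 93.4% of the 32851 promoter windows of the same length, so its presence sets none of the 3 genes apart. The longer ETS match CCGGAA, which contains the core and is in 12% of windows, and the RUNX match TGTGGT, in 14%, both searched on either strand, were in none of the 3 windows. All 3 windows were rich in CG dinucleotides, with 23 in *Spry1*, 23 in *Spry2* and 19 in *Fgfr3*, against a median of 6 over all windows, and their GC content was 62.4, 62.4 and 66.8%, against a median of 52.4%.

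In fresh bone, *Spry1* had 64.1, 96.3 and 51.7 CPM in GFP+ (hi) cells, against 8.02, 7.20 and 8.18 CPM in GFP- cells. The GFP- libraries were nearly level and all GFP+ (hi) libraries stood well above them, with a log2 fold change of 3.18 (SE 0.26, edgeR adjusted p = 1.29e-05). *Spry2* was low in both populations, at 0.865, 0.887 and 2.31 CPM in bone GFP+ (hi) and 1.43, 8 and 5.96 CPM in bone GFP- cells. These libraries overlapped. Its log2 fold change was -1.91 (SE 0.68, edgeR adjusted p = 0.0468), and the call was lost in 7 of 17 alternatives, among them leaving out GFP+ (hi) replicate 1 (adjusted p = 0.13) or 2 (0.118) and GFP- replicate 2 (0.203) or 3 (0.128). *Spry4*, at chr18:38745922-38760922 on the minus strand, had 19.6, 17.1 and 4.62 CPM in bone GFP+ (hi) and 5.50, 3.09 and 8.65 CPM in bone GFP- cells. Replicate 3 of the GFP+ (hi) cells lay within the GFP- range, and *Spry4* was not called, at 1.26 (SE 0.54, edgeR adjusted p = 0.0883). Without that library it was called (adjusted p = 0.00379).

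In cultures of bone chips, all 6 genes that passed the filter on low counts were called, where 43.5% of all 12841 genes tested were. *Fgfr1*, *Fgfr3*, *Spry1* and *Spry4* were higher in GFP+ (hi) cells, and *Fgfr2* and *Spry2* were lower. That is 4 higher, beside 20.4% of all genes, and 2 lower, beside 23.1%. The median of the 6 was 0.94, against -0.04 over all genes tested. *Fgfr4*, *Fgf2*, *Fgf18* and *Fgf23* did not pass the filter.

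*Fgfr1* had 298, 246 and 363 CPM in chip GFP+ (hi) cells, against 179, 143 and 159 CPM in chip GFP- cells. The groups lay apart, but the step was smaller than in bone, with a log2 fold change of 0.92 (SE 0.16, edgeR adjusted p = 0.00391). *Fgfr2* had 71.1, 65.9 and 77.5 CPM in chip GFP+ (hi) cells and 232, 181 and 187 CPM in chip GFP- cells. Here the GFP- cells were the high ones, at -1.48 (SE 0.13, edgeR adjusted p = 0.000167). Stromal genes moved with *Fgfr2*, since 9 fibroblast and stromal markers summed to 1580 to 1770 CPM in chip GFP+ (hi) and 4360 to 7000 CPM in chip GFP- cells, with 8 of the 9 lower and 1 higher. Smooth muscle markers summed to 48.1 to 73.8 CPM in chip GFP+ (hi) and 152 to 278 CPM in chip GFP- cells. Their part in the *Fgfr2* difference was not tested.

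*Fgfr3* in bone chips had 115, 139 and 92.7 CPM in GFP+ (hi) cells, against 47.9, 46.9 and 43.7 CPM in GFP- cells. It was thus higher in the GFP+ (hi) cells of the cultures, with a log2 fold change of 1.32 (SE 0.15, edgeR adjusted p = 0.000617). Cartilage markers did not separate these populations as they did in fresh bone. *Col2a1* had 4600, 5930 and 5170 CPM in chip GFP+ (hi) and 5020, 3370 and 6830 CPM in chip GFP- cells, and of 11 chondrocyte markers tested 2 were higher and 4 lower.

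Among the Sprouty genes of bone chips, *Spry1* had 12, 11.2 and 19.3 CPM in GFP+ (hi) cells, against 5.05, 6.98 and 4.03 CPM in GFP- cells. The groups lay apart, with a log2 fold change of 1.41 (SE 0.29, edgeR adjusted p = 0.00709). *Spry2* had 20.5, 17.8 and 16.5 CPM in chip GFP+ (hi) cells and 82.1, 71.4 and 74.7 CPM in chip GFP- cells. Replicates differed little in *Spry2* within either population and the groups lay far apart, at -2.06 (SE 0.11, edgeR adjusted p = 3.64e-05). *Spry4* had 38.6, 29.8 and 58.6 CPM in chip GFP+ (hi) cells and 21.6, 19.9 and 23.2 CPM in chip GFP- cells. It was called at 0.97 (SE 0.24, edgeR adjusted p = 0.0152), and the same fold was not called in a joint fit of all 18 libraries (0.97, adjusted p = 0.173).

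The 4 genes below the filter in bone chips were at or near the limit of detection. *Fgfr4* had 0, 1 and 2 counts in chip GFP+ (hi) and 2, 2 and 5 in chip GFP- cells. *Fgf23*, at chr6:127022920-127031426 on the plus strand, had 2, 0 and 3 counts in chip GFP+ (hi) and 0, 1 and 0 in chip GFP- cells. Neither the receptor nor the hormone could be compared at this depth. *Fgf2* had 4, 4 and 4 counts in chip GFP+ (hi) cells and 15, 8 and 36 in chip GFP- cells, and *Fgf18* 3, 4 and 4 counts in chip GFP+ (hi) cells and 14, 9 and 14 in chip GFP- cells. The pooled CPM of *Fgf2* was 3.54 times as high in chip GFP- as in chip GFP+ (hi) cells (95% counting interval 1.88 to 7.24) and that of *Fgf18* 2.42 times (1.21 to 5.27). When no filter was applied, *Fgf2* was at -1.76 (SE 0.52, edgeR adjusted p = 0.0352) and *Fgf18* at -1.33 (SE 0.46, edgeR adjusted p = 0.0613).

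ESC-OB GFP+ cells were compared with ESC, a contrast of many cell types in which most genes differ. Of the 9 genes tested, 8 were higher in ESC-OB GFP+ cells and *Spry2* was lower. Of all 15417 genes tested 77.7% were called, 43.0% higher and 34.7% lower, and the median log2 fold change was 0.22, against 3.51 over the 9. *Fgfr3*, *Fgf2* and *Fgf18* passed the filter on low counts only through the ESC-OB GFP+ libraries, so this count and median are a description. *Fgfr1* changed least, with 90.5, 173 and 169 CPM in ESC-OB GFP+ cells and 82.2, 92.3 and 77.2 CPM in ESC. Replicate 1 of the ESC-OB GFP+ cells lay within the ESC range, and the log2 fold change was 0.78 (SE 0.24, edgeR adjusted p = 0.0109). *Fgfr2* had 118, 168 and 171 CPM in ESC-OB GFP+ cells, against 12.2, 13.6 and 14.2 CPM in ESC, a log2 fold change of 3.51 (SE 0.20, edgeR adjusted p = 9.32e-08). The groups were well apart in *Fgfr2*, and further apart in *Fgfr3*.

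*Fgfr3* had 72.7, 71.8 and 76.0 CPM in ESC-OB GFP+ cells and 1.47, 0.555 and 0.209 CPM in ESC. It was nearly absent from ESC, with 19 counts in all, and its log2 fold change was 6.72 (SE 0.34, edgeR adjusted p = 4.5e-08). *Fgfr4* had 17.3, 9.30 and 17.0 CPM in ESC-OB GFP+ cells, against 2.58, 1.94 and 0.837 CPM in ESC, at 2.99 (SE 0.42, edgeR adjusted p = 6.37e-05). All 4 receptors were thus higher in ESC-OB GFP+ cells than in ESC. Markers of several other lineages moved with these results. Among those tested, 7 of 8 epithelial, 4 of 4 smooth muscle, 8 of 9 fibroblast and stromal, 7 of 9 chondrocyte, 4 of 5 endothelial and 3 of 3 myeloid markers were higher in ESC-OB GFP+ cells, and their part was not tested. Without ESC-OB GFP+ replicate 1 all 9 calls of the members stayed, and *Fgfr1* was at 1.09 (edgeR adjusted p = 7.85e-05).

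*Fgf18* and *Fgf2*, the ligands among the chosen genes that were tested, were higher too. *Fgf18* had 20.9, 55.0 and 28.8 CPM in ESC-OB GFP+ cells and 0.368, 1.22 and 0.419 CPM in ESC, at 5.35 (SE 0.51, edgeR adjusted p = 3.38e-06). *Fgf2* had 71, 62 and 67 counts in ESC-OB GFP+ cells and 2, 3 and 0 counts in ESC, and its pooled CPM was 14.9 times as high in ESC-OB GFP+ cells (95% counting interval 6.28 to 46.4). It was scarce in both, with a log2 fold change of 3.84 (SE 0.64, edgeR adjusted p = 0.000244), and *Nudt6* was here higher as well, at 2.71 (SE 0.41, edgeR adjusted p = 0.000118). *Fgf23* did not pass the filter. It had 12, 9 and 35 counts in ESC-OB GFP+ cells and 0, 1 and 0 counts in ESC, a ratio of pooled CPM of 20.9 (95% counting interval 3.60 to 839). Without the filter its log2 fold change was 4.21 (SE 1.23, edgeR adjusted p = 0.00685), at a level of 0.414, 0.410 and 1.41 CPM in ESC-OB GFP+ cells.

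*Spry1* had 123, 126 and 126 CPM in ESC-OB GFP+ cells, against 6.63, 5.77 and 3.77 CPM in ESC. The 3 ESC-OB GFP+ libraries were almost level, and the log2 fold change was 4.51 (SE 0.21, edgeR adjusted p = 2.73e-08). *Spry2* had 4.83, 13.4 and 8.68 CPM in ESC-OB GFP+ cells and 37.2, 58.2 and 60.1 CPM in ESC. It was the one gene of the 9 that was lower, at -2.54 (SE 0.34, edgeR adjusted p = 5.22e-05). *Spry4* had 9.46, 34.6 and 25.4 CPM in ESC-OB GFP+ cells, against 1.47, 5.05 and 5.65 CPM in ESC, with a log2 fold change of 2.47 (SE 0.52, edgeR adjusted p = 0.00124). Replicate 1 was the lowest library of its group in both *Spry2* and *Spry4*, on either side of the comparison.

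**Figure D3:**
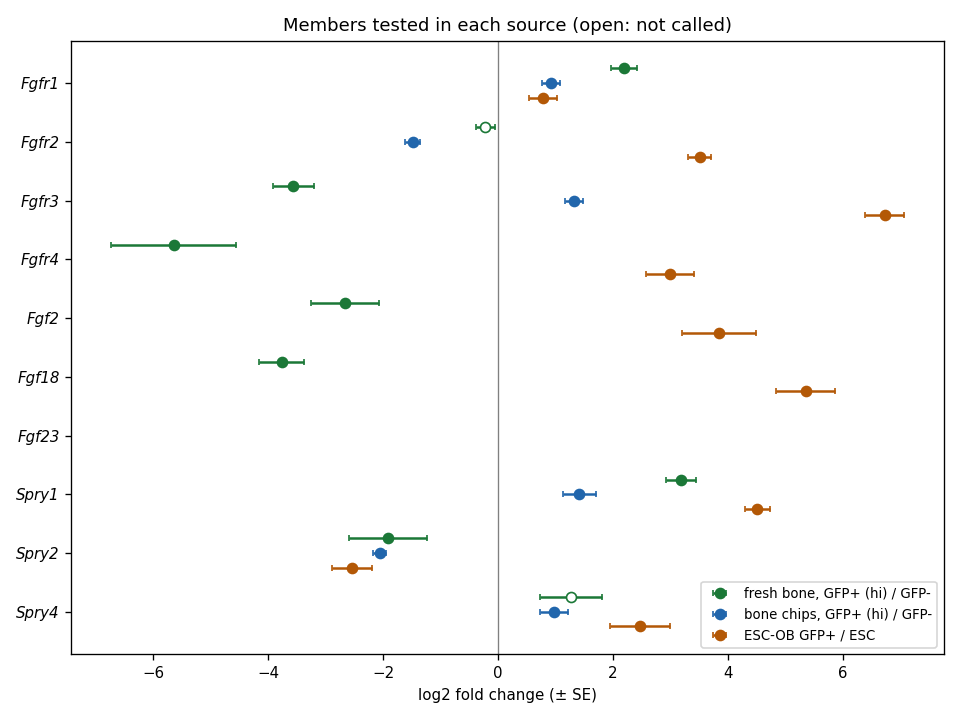
Log2 fold change ± SE (edgeR, x axis) of each gene that passed the filter, in each of the 3 sources, from 3 libraries per group; filled points were called and open points were not. *Spry1* lies right of 0 and *Spry2* left of 0 in all 3 sources, while *Fgfr3* is at -3.56 in bone and right of 0 elsewhere, at 1.32 (bone chips) and 6.72 (ESC-OB).

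Whether GFP marked the same change in fresh bone and in culture was tested by the difference of the log2 effects (bone effect minus chip effect) in 1 edgeR fit of 12 libraries. The X-linked *Xist* had 244 to 553 CPM in bone chip libraries, whose 1 Y-linked gene had at most 1 count. In fresh bone *Xist* had 23.7, 1.5 and 16.7 CPM in GFP+ (hi) and 0, 0.229 and 1.17 CPM in GFP- libraries. The difference of effects therefore cannot be fully told apart from one of sex or animal. All 9 genes with rows in both tables were tested, and 5 of them differed, where 30.3% of 13574 genes did. *Fgfr3* differed in direction, with an effect of -3.56 in bone and 1.32 in bone chips and a difference of -4.89 (SE 0.44, edgeR adjusted p = 5.67e-06). For *Fgfr1* and *Spry1* the effects had the same sign and the one in bone was larger, by 1.28 (SE 0.30, edgeR adjusted p = 0.00631) and by 1.76 (SE 0.39, edgeR adjusted p = 0.00463). *Fgfr2*, lower in chip GFP+ (hi) cells and not called in bone, differed by 1.27 (SE 0.21, edgeR adjusted p = 0.000753). *Fgf18* had a difference of -2.46 (SE 0.65, edgeR adjusted p = 0.0132). On the side of bone chips this rests on few counts, 3, 4 and 4 in GFP+ (hi) and 14, 9 and 14 in GFP- cells. There *Fgf18* did not pass the filter on its own and was not called without it. With all libraries thinned to 4920977 counts the difference was about as large and not called (-2.49, adjusted p = 0.183).

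The difference for *Fgfr4* was -4.60 (SE 2.17, edgeR adjusted p = 0.13). It was called in 3 of 18 alternatives: with DESeq2 (-4.41, adjusted p = 0.0286), with thinned libraries (-8.78, adjusted p = 0.0152) and without bone GFP+ (hi) replicate 2 (-9.30, adjusted p = 0.00193), which holds all counts of *Fgfr4* in its group. *Fgf2* (-0.92, SE 0.81, edgeR adjusted p = 0.425), *Spry2* (0.14, SE 0.65, edgeR adjusted p = 0.894) and *Spry4* (0.30, SE 0.65, edgeR adjusted p = 0.768) were not called. With standard errors of this size, these values do not show that the effects were alike.

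**Figure D4:**
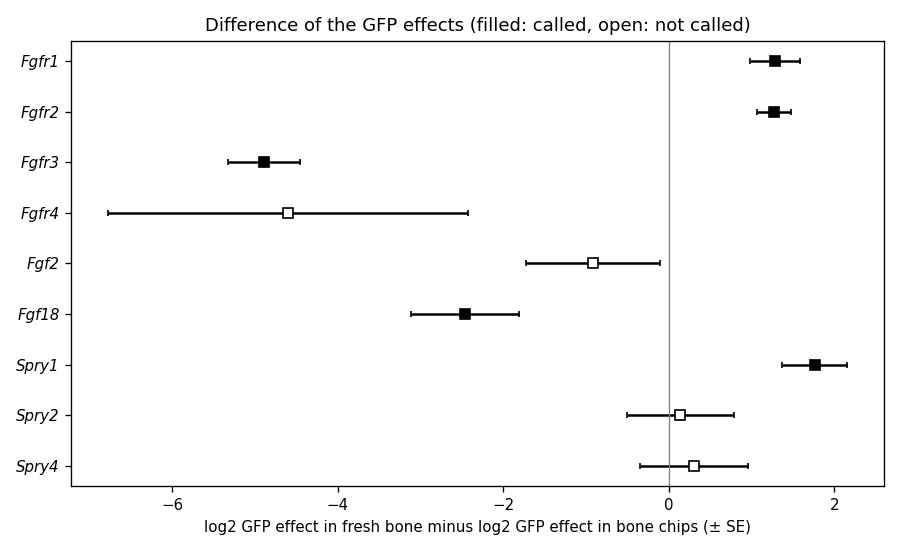
Difference of the log2 GFP effects, fresh bone minus bone chips, ± SE (x axis) for the 9 genes with rows in both tables, from 1 fit of 12 libraries; filled squares were called and open squares were not. *Fgfr3* lies farthest from 0 among the genes called, at -4.89, and *Fgfr1*, *Fgfr2* and *Spry1* lie between 1.27 and 1.76.

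A list of 73 further genes of the FGF pathway was counted in the same fits: other ligands, ligand-binding proteins and co-receptors, heparan sulfate proteins and enzymes, adaptors, inhibitors, ERK-ETS targets, and genes that process or govern *Fgf23*. Counts of its classes are to be read against the share of all genes called, which was 19.5% higher and 22.1% lower in bone, 20.4% and 23.1% in bone chips, and 43.0% and 34.7% in ESC-OB. In bone, 52 of the list were tested, of which 15 were higher and 13 lower (28.8% and 25%, median log2 fold change -0.02). In bone chips 55 were tested, with 12 higher and 25 lower (21.8% and 45.5%, median -0.37). In ESC-OB 64 were tested, with 40 higher and 13 lower (62.5% and 20.3%), and the median was 1.22, or 1.23 with the genes at 0 counts in a group set to their bound.

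Of the 6 genes that process or govern *Fgf23*, 4 were higher and 1 lower in bone (beside 19.5% and 22.1% of all genes), 4 higher and 1 lower in bone chips (20.4% and 23.1%), and 6 higher in ESC-OB (43.0%). *Dmp1*, an osteocyte matrix protein whose loss raises *Fgf23*, had 4400, 6880 and 6380 CPM in bone GFP+ (hi) cells and 3.30, 12.1 and 8.18 CPM in bone GFP- cells, the widest gap of the list in bone (9.55, SE 0.51, edgeR adjusted p = 1.12e-06). In bone chips *Dmp1* had 1340, 1160 and 2350 CPM in GFP+ (hi) and 20.7, 47.5 and 32.8 CPM in GFP- cells (5.58, SE 0.44, edgeR adjusted p = 0.000124). *Phex*, the endopeptidase of X-linked hypophosphatemia, was at 522, 586 and 506 CPM in chip GFP+ (hi) and 10.2, 20.6 and 9.92 CPM in chip GFP- cells (5.31, SE 0.32, edgeR adjusted p = 5.41e-05). *Phex* was also higher in bone GFP+ (hi) cells, with 154, 121 and 162 CPM against 2.53, 7.43 and 7.48 CPM in bone GFP- cells (4.65, SE 0.35, edgeR adjusted p = 8.84e-06). *Galnt3*, which glycosylates *Fgf23* and so shields it from cleavage, had 71.1, 34.8 and 39.4 CPM in ESC-OB GFP+ cells and 0.184, 0.388 and 0 CPM in ESC (7.43, SE 0.51, edgeR adjusted p = 3e-07). In ESC-OB GFP+ cells *Dmp1* had 2.8, 25.5 and 6.63 CPM, against 1.66, 3.16 and 0.628 CPM in ESC, and the libraries overlapped. *Phex* had 0.621, 11.4 and 3.1 CPM there, against 0.184, 0.61 and 0.419 CPM in ESC. Both were highest in ESC-OB GFP+ replicate 2. *Dmp1* and *Phex* are also among the osteocyte and osteoblast markers, so their rise repeats the check of the sort.

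Of the other ligands, *Fgf13*, an intracellular FGF homolog that is not secreted, was higher in bone GFP+ (hi) cells, with 15.4, 16.9 and 12.5 CPM against 1.21, 0.571 and 1.75 CPM in bone GFP- cells (3.66, SE 0.39, edgeR adjusted p = 8.29e-05). *Fgf1*, which binds all the receptors, was higher in chip GFP+ (hi) cells, with 6.24, 4.64 and 9.48 CPM against 0.174, 0.634 and 0.602 CPM in chip GFP- cells (3.75, SE 0.45, edgeR adjusted p = 0.00073). *Fgf10*, a mesenchymal ligand, was lower in chip GFP+ (hi) cells, with 0.662, 0.747 and 0.478 CPM against 5.74, 4.88 and 12.5 CPM in chip GFP- cells (-3.61, SE 0.46, edgeR adjusted p = 0.000989). In bone chips *Fgf1* was thus on the side of the GFP+ (hi) cells and *Fgf10* on that of the GFP- cells. *Fgf4*, the autocrine ligand of ESC, had no counts in ESC-OB GFP+ cells and 189, 247 and 211 CPM in ESC, so that it was at least 5440-fold lower, against a floor of 3 counts over the group. *Fgf17* was lower as well, with 0, 0.319 and 0.603 CPM in ESC-OB GFP+ cells and 7.92, 14.9 and 14 CPM in ESC (-5.34, SE 0.75, edgeR adjusted p = 6.68e-05). *Fgf14*, another intracellular homolog, had 0.621, 2.19 and 1.49 CPM in ESC-OB GFP+ cells. No ESC library held a count of it, so it was at least 13.5-fold higher by the same floor.

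*Fgf4* also had 22, 11 and 18 counts in the 3 bone GFP+ (hi) libraries, and 0 in each bone GFP- library, where a count of 0 over the group allows up to 0.114 CPM. Other pluripotency markers moved with it. All 6 of that list that were tested were higher in bone GFP+ (hi) cells, and its summed level was 16.4 to 20.5 CPM in bone GFP+ (hi) and 0.114 to 0.44 CPM in bone GFP- cells, with *Esrrb*, *Zfp42* and *Fgf4* at 0 in the GFP- libraries. In bone chips the summed level was 0.332 to 1.2 CPM in GFP+ (hi) and 0.19 to 0.556 CPM in GFP- cells. On the scale of all 18 libraries, the 7 genes of the list stood in bone GFP+ (hi) cells at 0.969 to 1.17% of their ESC level, *Fgf4* at 0.969%. Where these transcripts in fresh bone came from was not tested. ESC had 11.3 to 13.2 RPKM of all FGF receptors together, the lowest of the 6 populations.

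At the cell surface, *Fgfrl1*, a receptor that binds FGF but lacks a kinase domain, followed *Fgfr3* in fresh bone, with 21.1, 19.9 and 9.52 CPM in bone GFP+ (hi) and 193, 159 and 204 CPM in bone GFP- cells (-3.46, SE 0.29, edgeR adjusted p = 1.8e-05). *Sdc4*, a heparan sulfate proteoglycan, had 38.1, 37.1 and 41.5 CPM in bone GFP+ (hi) and 395, 435 and 299 CPM in bone GFP- cells (-3.27, SE 0.18, edgeR adjusted p = 1.44e-06). *Hs6st2*, a sulfotransferase that modifies heparan sulfate, had 0, 0.478 and 0 CPM in bone GFP+ (hi) and 5.28, 6.28 and 5.61 CPM in bone GFP- cells (-5.44, SE 1.09, edgeR adjusted p = 0.00339). It was lower in chip GFP+ (hi) cells too, with 5.11, 6.05 and 5.26 CPM against 106, 67.2 and 121 CPM in chip GFP- cells (-4.16, SE 0.25, edgeR adjusted p = 5e-05). *Flrt1*, a membrane protein that binds FGF receptors, had 0.757, 0.829 and 0.159 CPM in chip GFP+ (hi) and 8.53, 6.91 and 6.86 CPM in chip GFP- cells (-3.67, SE 0.43, edgeR adjusted p = 0.000689). Of 16 heparan sulfate genes tested, 3 were higher and 7 lower in bone (beside 19.5% and 22.1% of all genes), and 4 were higher and 8 lower in bone chips (20.4% and 23.1%).

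Genes that read the ERK cascade did not follow 1 direction. *Dusp6*, a phosphatase that ERK induces and that inactivates ERK, had 48.9, 57.5 and 49.6 CPM in bone GFP+ (hi) and 41.0, 40.6 and 42.7 CPM in bone GFP- cells and was not called (0.33, SE 0.15, edgeR adjusted p = 0.102). In bone chips *Dusp6* had 40.2, 30.3 and 42.5 CPM in GFP+ (hi) and 203, 144 and 180 CPM in GFP- cells (-2.22, SE 0.18, edgeR adjusted p = 0.000137). In ESC-OB it had 119, 177 and 158 CPM in GFP+ cells and 3.32, 12.1 and 9.21 CPM in ESC (4.12, SE 0.36, edgeR adjusted p = 1.89e-06). *Dusp6* therefore stood beside *Spry2* in bone chips, where both were lower in GFP+ (hi) cells, and opposite to it in ESC-OB. *Etv5*, an ETS factor that FGF induces, was higher in bone GFP+ (hi) cells, at 64.7, 59.9 and 30.2 CPM against 14.1, 17.3 and 21.3 CPM in bone GFP- cells (1.56, SE 0.29, edgeR adjusted p = 0.00239). The same gene was marginal in bone chips, at 17.9, 18.5 and 16.1 CPM in GFP+ (hi) cells against 24.3, 41.3 and 21.5 CPM in GFP- cells (-0.73, SE 0.25, edgeR adjusted p = 0.0497). That call held in 10 of 16 alternatives, and without chip GFP- replicate 2, the library rich in myeloid markers, the fold was smaller (-0.39, edgeR adjusted p = 0.027). It was not called without any 1 of the chip GFP+ (hi) libraries (edgeR adjusted p = 0.102 to 0.133) or without GFP- replicate 1 (0.0558). It was far lower in ESC-OB GFP+ cells, at 8.32, 15.7 and 11.1 CPM against 433, 634 and 562 CPM in ESC (-5.54, SE 0.29, edgeR adjusted p = 4.99e-08).

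*Etv4*, a close relative of *Etv5*, did not pass the filter in bone, with 33 counts in GFP+ (hi) and 27 in GFP- cells. It was lower in chip GFP+ (hi) cells (-1.56, SE 0.44, edgeR adjusted p = 0.027, called in 9 of 15 alternatives) and in ESC-OB GFP+ cells (-3.30, SE 0.32, edgeR adjusted p = 4.36e-06). *Egr1*, an immediate early gene of ERK, had 2700, 2850 and 2360 CPM in ESC-OB GFP+ cells and 0.553, 0.555 and 1.26 CPM in ESC (11.88, SE 0.34, edgeR adjusted p = 5.53e-09). Of the 6 ERK-ETS targets in the list, 2 of 5 tested were higher and 1 lower in bone (where 41.6% of all genes were called), 5 of 6 were lower and none higher in bone chips (43.5%), and 2 were higher and 3 lower in ESC-OB (77.7%). Of the inhibitors beside the Sprouty genes, 1 of 7 was lower in bone and none higher, 4 of 8 were lower and 1 higher in bone chips, and 5 of 7 were higher and 2 lower in ESC-OB, beside the same shares of all genes.

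**Figure D5:**
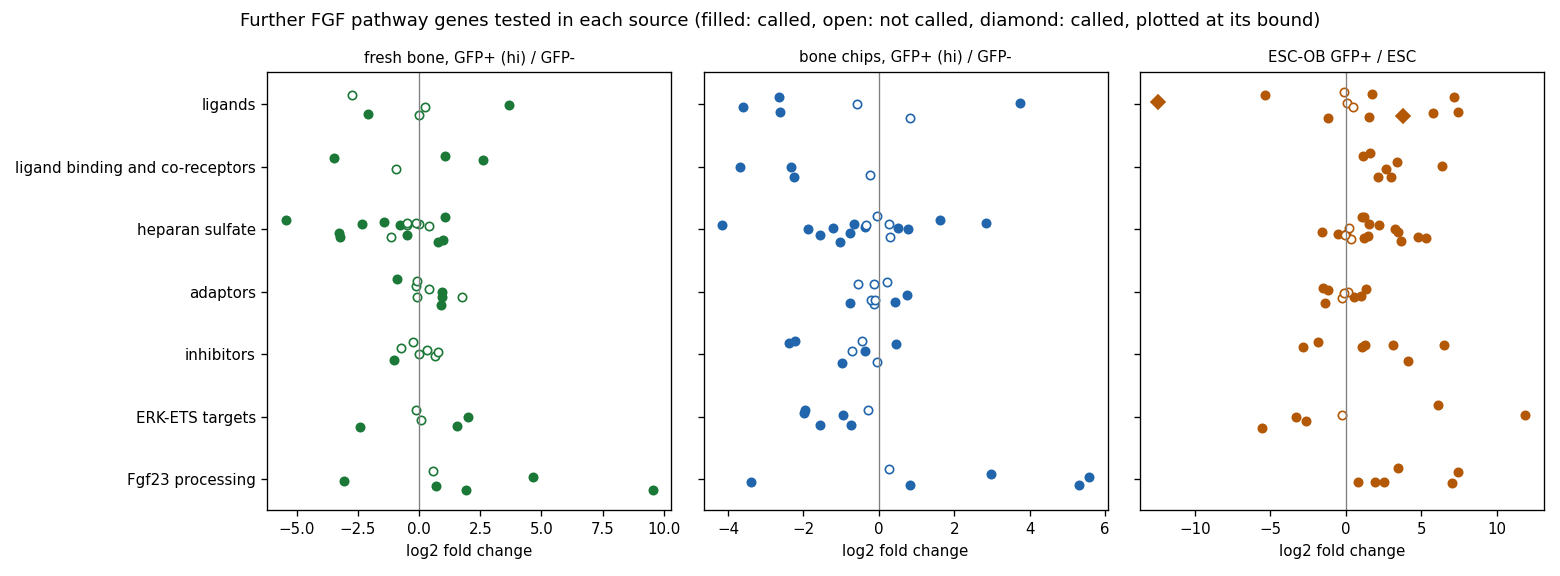
Log2 fold change (edgeR, x axis; ranges differ between panels) of the further FGF pathway genes tested in fresh bone, bone chips and ESC-OB, by class (y axis; height within a class only spreads the points). Filled points were called, open points were not, and diamonds are *Fgf4* and *Fgf14* in ESC-OB, drawn at their bounds. The 5 called ERK-ETS targets of bone chips lie left of 0, and *Dmp1* lies at 9.55 in bone.

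Lastly, for each member that reached 1 CPM in some population, the genes with the most similar pattern over the 18 libraries were found among 10835 genes (Pearson's r of log2 of TMM CPM plus 1). The libraries fall into 6 populations of 3, so these r describe likeness of the population means more than of single libraries. *Fgfr1* was most like *Shc2* (0.982), *Fyn* (0.978) and *Gxylt2* (0.973). *Shc2*, an adaptor of receptor tyrosine kinases, averaged 349 CPM in bone GFP+ (hi) and 15.6 CPM in bone GFP- cells. *Fgfr2* was most like *Hmgn3* (0.984), *Rin2* (0.981) and the type III collagen gene *Col3a1* (0.98), and *Fgfr3* most like *Serinc5* (0.972), *Capn6* (0.964) and *Twsg1* (0.963). The scarce *Fgfr4* ran with *Fhad1* (0.966), *Mall* (0.965) and *Tspan15* (0.961). *Fgf18* was most like *Dlk1* (0.977), *Pthlh* (0.971), which encodes the parathyroid hormone-related protein of the growth plate, and *Nkd1* (0.961), and *Fgf2* most like *Mfge8* (0.945), *Cry2* (0.94) and *Barx1* (0.938). *Spry1* ran with *Shb* (0.971), *Rnf123* (0.953) and *Ogfod2* (0.949), and *Spry2* with *Rtn4* (0.942), *Ddhd2* (0.932) and *Cd80* (0.931). *Spry4* ran with *Cnksr3* (0.938) and *Bcl2l11* (0.926). No named neighbour was shared between any members, so the Sprouty genes were not set apart in this.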

How the data were processed

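The authors purified poly-A RNA, sequenced it from both ends, used STAR 2.4.2a to align the reads to mm9, and ran DESeq2 on RefSeq genes in R 3.2.2. The deposited tables hold whole-number counts per gene, not normalized, 1 table per source. The counting tool, its strand setting and the handling of reads that align to several places are not given in the sources used here. The tables of bone and bone chips hold no gene with fewer than 2 counts in all.

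Each source was fitted on its own with edgeR 4.0.16 (R 4.3.3): filterByExpr with a minimum count of 10, TMM factors, the quasi-likelihood test without covariates, and Benjamini-Hochberg adjustment over all genes tested. Counting intervals and floors (3 counts) cover counting error only. Lengths and gene positions are from GENCODE vM1 on mm9, and promoters from RefSeq on GRCm38.p6. The RUNX and ETS matches and the CG counts were chosen after the data were seen.

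The members and lists were chosen with earlier results of these data known. All members are named, with, per source, up to 3 list genes higher and 3 lower of largest change among those called with no overlap between libraries and a mean of at least 1 CPM in the higher group, together with *Fgf4*, *Dusp6*, *Etv4* and *Etv5*. Values of other list and marker genes are given to check the labels, or beside a result to show whether they moved with it. The 3 genes of most similar pattern are named for each member, except 1 gene that is not reported here.

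Replicate numbers are shared by the groups. Same-numbered libraries of bone chips deviated together in all 3 pairs (correlation of residuals 0.158, 0.329 and 0.396), so the numbers may pair these samples. The main fits did not use such a pairing, and a fit with the replicate number as a block was among the alternatives. Same-numbered libraries of bone (-0.0217 to 0.0305) and ESC-OB (-0.015 to -0.000703) did not deviate together. The other alternatives were a filter at 1 CPM or none, factors by RLE or upper quartile, DESeq2 1.42.0, thinning to 4920977 counts, omission of *Col1a1*, *Col1a2* and *Rn45s*, 1 joint fit of the 18 libraries, a test against a log2 change of 1, and omission of single libraries. The fit with bone GFP+ (hi) replicate 2 alone, and those for the pathway list, were chosen after seeing the data. The fits were also run on counts simulated from edgeR's own model, which cannot show whether that model holds for these libraries. Figures were made with Python 3.11.15 and matplotlib 3.10.9.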

Additional observations from a re-analysis of the deposited data

Results flagged for a closer look

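For 5 genes the effect of GFP differed between fresh bone and bone chips by the test of the difference itself (edgeR, adjusted over all genes). Sex-linked transcripts also differed between these libraries, so the effect of sex or animal cannot be fully told apart from these differences. The log2 effect in bone minus that in bone chips was -4.89 for *Fgfr3*, whose sign differed between the sources, and 1.27 for *Fgfr2*, which was called in bone chips and not in bone. It was 1.28 for *Fgfr1* and 1.76 for *Spry1*, both higher in the GFP+ (hi) cells of each source. For *Fgf18*, which did not pass the filter in bone chips on its own, it was -2.46. Over 18 alternatives the call was lost for *Fgf18* alone among these 5, when the libraries were thinned.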

How the results depend on the processing

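Of 555 alternative values for single genes, 533 stayed on the same side of the threshold, 15 were no longer called, 7 were newly called and no called value changed sign. The differences of *Spry2* (-0.47 to 0.7) and *Spry4* (-0.06 to 0.78) between bone and bone chips, which were not called, took either sign. In bone, the members lower were 3 in place of 5 with GFP+ (hi) replicate 2 alone, and 4 to 5 when a library was left out (2 to 3 higher). In bone chips, no member was higher and past a threshold of 1 on the log2 scale, in place of 4, and members lower numbered 4 in place of 2 without GFP- replicate 2, since *Fgf2* and *Fgf18* then passed the filter and were called (2 to 4 over libraries left out, with 4 higher throughout). Over libraries left out, ESC-OB kept counts of 8 higher and 1 lower, and the test of the difference 3 larger and 2 to 3 smaller in bone. The 8 were 9 with DESeq2 and with no filter, and 7 past a threshold of 1. Of the pathway list in bone, 5 in place of 15 were higher and 8 in place of 13 lower past a threshold of 1, and 8 were lower with GFP+ (hi) replicate 2 alone; leaving out a library gave 14 to 17 higher and 11 to 12 lower. In bone chips 6 in place of 12 were higher and 13 in place of 25 lower past that threshold, with 10 to 12 higher and 20 to 26 lower over libraries left out, and in ESC-OB 37 to 40 and 11 to 15. With a replicate block *Spry2* in bone was no longer called (-1.74, adjusted p = 0.0652), and the block changed no call of another member. The median of all genes in bone was -0.11 under DESeq2 against 0, and no fold change of a member within a source changed sign under any scaling. Depth limits *Fgfr4*, *Fgf2*, *Fgf18* and *Fgf23* in bone chips and *Fgf23* in ESC-OB.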
